A study of Mus musculus with 26 samples.

Results

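The 42 macrophage genes described here were taken by symbol from the 54532 genes counted in 26 libraries of mouse aorta, and all 42 symbols matched a counted gene through the GENCODE M21 annotation of mm10. They were sorted into 17 pan-macrophage genes, which most tissue macrophages express, 13 genes of resident perivascular macrophages such as Lyve1, Folr2 and Mgl2, 8 lipid-associated genes such as Trem2, Gpnmb and Lgals3, and 4 others (Marco, Cd5l, Arg1 and Retnla). The members and subsets were named from known biology and not by their values in a comparison, but they were proposed with earlier results of these data known.

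Macrophages of the artery wall depend on signalling through CSF1R and clear dying cells and debris through receptors such as MERTK and the C1q complement proteins. They recognise antibody through Fc receptors that signal with FCER1G. Resident perivascular macrophages of the adventitia carry the hyaluronan receptor LYVE1, the folate receptor FOLR2 and scavenger receptors and lectins such as CD163, MRC1 and MGL2. Macrophages that take up lipid or debris raise a different set that includes the lipid-sensing receptor TREM2, which signals through TYROBP, the glycoprotein GPNMB, the lectin galectin-3 (Lgals3) and lysosomal and lipid-handling proteins. Some members are also made by other cells of the vessel: Lyve1 and Stab1 by endothelium, Lpl, Plin2 and Fabp5 by fat and muscle cells, and Apoe, Ctsd and Lgals3 by several cell types.

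All mice were male. The 4 untreated groups, of 4 libraries each, came from the ascending or the descending aorta of wild type mice or of littermates carrying Fbn1 C1041G/+, a heterozygous cysteine-to-glycine change in fibrillin-1 used as a model of Marfan syndrome. Both groups of 5 antisense libraries came from the ascending aorta of Fbn1 C1041G/+ mice given a control antisense oligonucleotide (control ASO) or one against angiotensinogen (AGT-ASO), so all 10 carried the mutation and no wild type or untreated group belongs to that experiment. The labels give no ages, doses or durations, name no mouse for any library and do not say whether mice were pooled, so p-values measure the spread between these libraries. Each library held 17171652 to 28554356 gene counts. Levels are given as CPM, counts scaled to the size of the library with factors set over all 26 libraries, and tests are edgeR's quasi-likelihood test with Benjamini-Hochberg adjustment over all genes tested in each experiment, with an adjusted p under 0.05 called. Agt, the target of AGT-ASO, had 13, 7, 6, 22 and 9 counts in control ASO libraries 8, 12, 13, 16 and 17 and 2, 26, 2, 5 and 2 counts in AGT-ASO libraries 14, 15, 18, 19 and 20. The library labelled AGT-ASO 15 was above every control library and the other 4 were below all of them. These counts were too low for the count filter and do not check the labels.

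In the wild type ascending aorta the 6 smooth muscle genes summed to 15540 to 21940 CPM and the 7 fibroblast genes to 6836 to 9878 CPM, against 76.2, 59.8, 99.7 and 74.7 CPM for Csf1r. These are bulk libraries, in which fewer macrophages and less macrophage RNA per cell cannot be told apart. Per kilobase of exon, the highest members in that group were Apoe (600 CPM per kilobase), the lysozyme gene Lyz2 (239), the lysosomal protease gene Ctsd (150) and the complement genes C1qa (95.0) and C1qb (84.0). Trem2 was 39th of 42 on that scale, at 0.844, and only Arg1, Marco and Cd5l were lower. The length used joins all annotated exons of a gene, 4946 bases for Trem2, so the rank depends on that annotation. Marco had 0 to 7 counts and Cd5l 0 to 20 in any library; the count filter removed both, and 40 of the 42 members were tested in each experiment. The members that the results turn on lie, on mm10 and all on the plus strand, at chr14:47367751-47386160 (Lgals3, ENSMUSG00000050335), chr19:12460779-12465283 (Mpeg1, ENSMUSG00000046805), chr17:48346401-48354147 (Trem2, ENSMUSG00000023992) and chr11:70130329-70137550 (Mgl2, ENSMUSG00000040950), each a protein-coding gene with no exon shared with an annotated gene on either strand.

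There were 3 libraries that stood apart in many members at once. Library 5 of the wild type descending aorta was the lowest of its 4 libraries for 15 of 17 pan, 13 of 13 resident and 5 of 8 lipid genes, with median ratios to the mean of the other 3 of 0.505, 0.474 and 0.703. Among the AGT-ASO libraries, number 20 was the lowest of 5 for 15 of 17 pan, 10 of 13 resident and 5 of 8 lipid genes, with median ratios of 0.483, 0.487 and 0.838. The pan gene Mertk went the other way there, with a ratio of 1.257. Both libraries were also the lowest of their group for the summed mast cell genes (9.59 and 3.34 CPM) and lymphatic endothelial genes (24.6 and 44.0 CPM). Library 2 of the mutant ascending aorta was the highest of its 4 for 14 of 17 pan genes, with a median ratio of 1.33, but for only 5 of 13 resident genes, with a median ratio of 0.949. That library also had the highest sum of 10 lymphocyte genes, 48.8 CPM against 4.53 to 11.8 in the other 3, and of 12 inflammatory genes, 108 CPM against 39.9 to 83.0. Subset medians and calls that depend on these libraries are given with and without them.

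**Figure D1:**
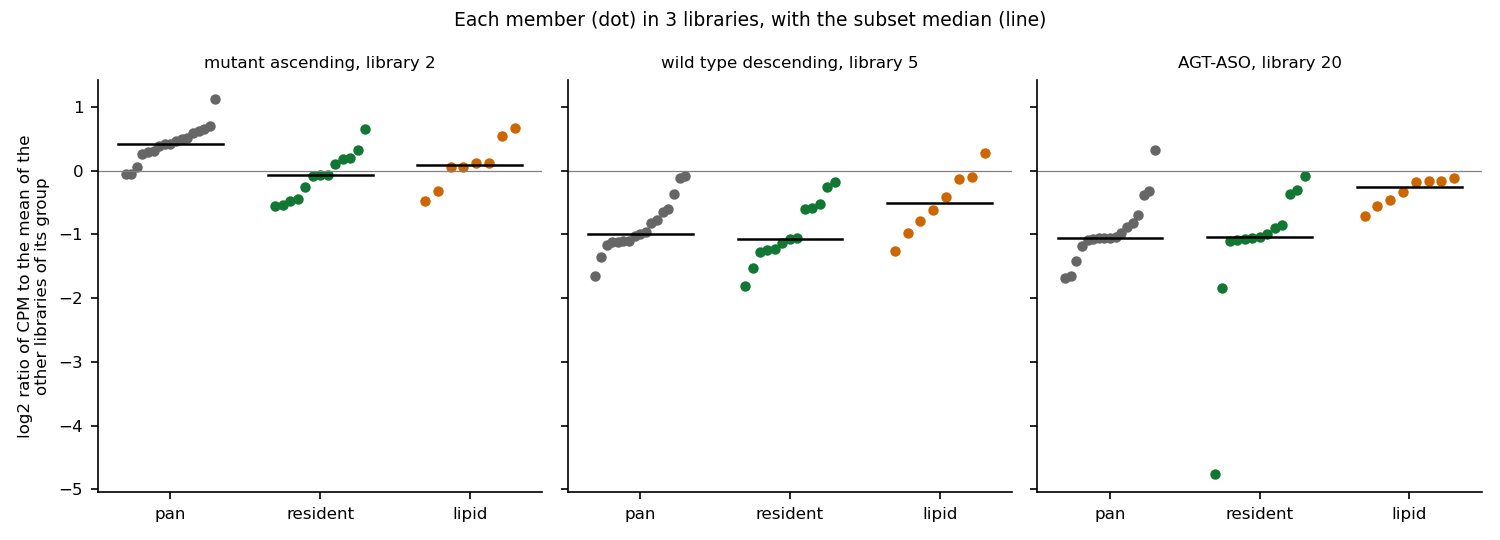
Log2 ratio of each member's CPM to the mean of the other libraries of its group, in the 3 libraries that stood apart; dots are genes and lines subset medians. The pan and resident genes sit about 1 log2 unit low together in wild type descending library 5 and AGT-ASO library 20, while in mutant ascending library 2 the median ratio is 1.33 for the pan, 0.949 for the resident and 1.065 for the lipid genes.

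The subset means, the average of log2(CPM + 0.5) over a subset's genes, describe each library by 3 values. For the ascending aorta the pan mean was 4.78 ± 0.06 for wild type and 5.22 ± 0.23 for mutant libraries (SD, n = 4), and for the descending aorta 4.51 ± 0.44 and 4.93 ± 0.11. The resident mean was 4.22 ± 0.19, 4.35 ± 0.06, 4.21 ± 0.46 and 4.50 ± 0.22 in the same order. The lipid mean was 5.85 ± 0.07, 6.10 ± 0.05, 5.50 ± 0.28 and 5.68 ± 0.08. In the ascending aorta the pan and lipid means of all mutant libraries lay above all wild type libraries, while the resident ranges overlapped (4.03 to 4.45 in wild type, 4.29 to 4.41 in mutant). In the antisense experiment the control ASO and AGT-ASO libraries had pan means of 4.02 ± 0.23 and 4.26 ± 0.40, resident means of 2.58 ± 0.19 and 2.45 ± 0.39, and lipid means of 5.94 ± 0.11 and 6.17 ± 0.15 (SD, n = 5), with overlap in each.

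**Figure D2:**
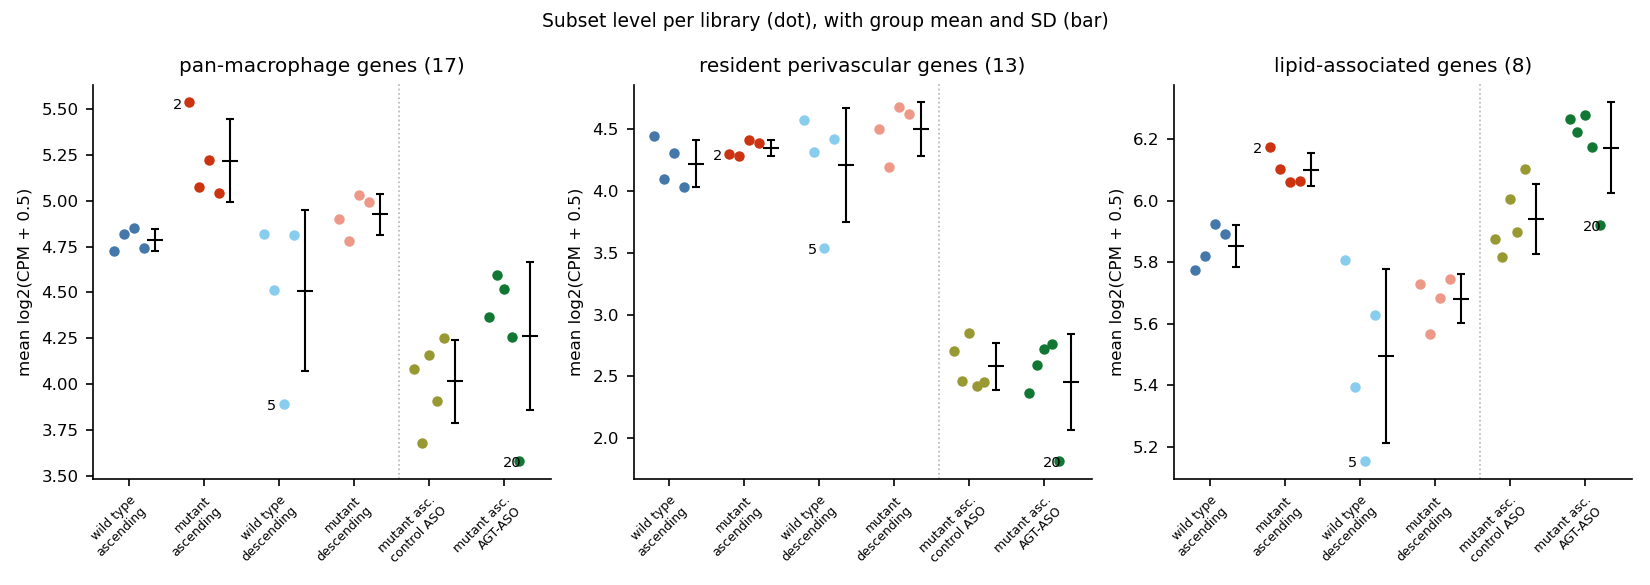
Mean log2(CPM + 0.5) of the 17 pan, 13 resident and 8 lipid genes in each library (dots, y axis), by group (x axis), with group mean and SD; numbers mark the libraries that stood apart and the dotted line separates the experiments. The resident mean lies between 3.54 and 4.68 in the untreated libraries and between 1.81 and 2.85 in the antisense libraries.

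The first comparison asked what the Fbn1 mutation changed in the ascending aorta, and Lgals3 was the only member called. This gene of a sugar-binding lectin abundant in phagocytes was at 18.6, 20.2, 17.2 and 18.7 CPM in wild type and at 52.1, 43.8, 28.6 and 26.0 CPM in mutant libraries. All mutant libraries lay above all wild type ones, and the gene was 2.00-fold higher (log2 fold change 1.00, SE 0.17, adjusted p = 0.00399), a call that held in 13 of 13 alternative analyses. The call for 1 of 40 members compares with 2.19% of all 15645 genes called in either direction and 1.18% called higher.

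None of the pan-macrophage genes passed the test. Of 17, all had a log2 fold change above 0, with a median of 0.46 and a range of 0.19 to 0.84, against a median of -0.01 over all genes, of which 48.0% were above 0. In 9 of the 17 every mutant library was above every wild type library, and none was below; over all genes 4.92% were separated upward and 4.58% downward. Mpeg1, a pore-forming protein of the macrophage phagosome, was at 30.2, 34.7, 39.4 and 34.8 CPM in wild type and 62.6, 46.2, 60.1 and 44.5 CPM in mutant libraries. The groups did not overlap, and the log2 fold change of 0.61 (SE 0.16) missed the threshold (adjusted p = 0.0659). Fcgr1, the high-affinity antibody receptor, had the highest value of the subset, 0.84 (SE 0.29, adjusted p = 0.146), and the signalling adaptors Fcer1g and Tyrobp were at 0.57 (adjusted p = 0.0947) and 0.53 (adjusted p = 0.144). The lysosomal glycoprotein gene Cd68 had a log2 fold change of 0.55 (SE 0.18, adjusted p = 0.123), with 7.87, 6.05, 9.93 and 8.12 CPM in wild type and 11.45, 10.96, 14.2 and 10.6 CPM in mutant libraries, and no overlap. Csf1r and Adgre1, the receptor that defines the lineage and the F4/80 antigen, had smaller values, 0.19 (SE 0.23, adjusted p = 0.73) and 0.26 (SE 0.20, adjusted p = 0.556). Without mutant library 2 the pan median was 0.31 and all 17 genes stayed above 0. Whether the lymphocyte and inflammatory genes of that library had a part in the pan difference was not tested. Among lists of other immune cells, the medians were 0.5 (monocyte), 0.72 (mast cell), 0.92 (lymphocyte), 0.41 (neutrophil) and 0.15 (dendritic cell), with no gene called. The median of the inflammatory genes was 0.98, also with no gene called. Fibroblast, endothelial, heart muscle and adipocyte medians were below 0 (-0.36, -0.09, -0.82 and -0.63). The part of these cells was not tested either.

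The median of the resident genes was 0.03, with 8 of 13 above 0, no gene called and no gene with separated groups. This median ranged from 0.01 to 0.17 when single libraries were left out. It was 0.17, with 12 of 13 above 0, without wild type library 1, 0.12 without mutant library 2 or wild type library 5, 0.10 without mutant library 4, and 0.02 and 0.01 without mutant library 6 and wild type library 7. Lyve1 was at 64.1, 66.4, 42.9 and 46.8 CPM in wild type and 83.3, 77.8, 59.2 and 62.6 CPM in mutant libraries, and the ranges overlapped (log2 fold change 0.35, SE 0.28, adjusted p = 0.57). Folr2 (-0.07, SE 0.24), Timd4, a receptor for dying cells (-0.08, SE 0.22), and Mgl2 (-0.01, SE 0.21) were close to 0 beside their errors. Vsig4, a complement receptor, was the furthest from 0 at 0.77 (SE 0.32, adjusted p = 0.233), with 0.778 to 2.04 CPM in wild type and 1.62 to 3.54 CPM in mutant libraries. No test compared one subset with another.

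Among the other lipid-associated genes, Trem2 was at 2.92, 4.19, 4.71 and 4.88 CPM in wild type and 9.98, 7.33, 7.25 and 6.06 CPM in mutant libraries. The groups did not overlap, and the log2 fold change of 0.86 (SE 0.22) fell just outside the threshold (adjusted p = 0.0505). With the library number as a random replicate block Trem2 and Mpeg1 were called (adjusted p = 0.035 and 0.033). Gpnmb differed little, at 15.4 ± 3.55 and 16.8 ± 2.39 CPM (SD, n = 4; log2 fold change 0.12, SE 0.24). Lpl, which frees fatty acids from lipoproteins, and Apoe, a lipoprotein component, were below 0 (-0.28, SE 0.32, and -0.16, SE 0.12), neither called. The median of the 8 was 0.15, and Lgals3, Trem2 and Ctsd had separated groups. Arg1, an enzyme of alternatively activated macrophages, had 11.5 CPM in mutant library 2 and 0.148 to 1.07 CPM in the other mutant libraries, and was not called by genotype (log2 difference 3.08, adjusted p = 0.19) or, in mutant mice, between regions (3.92, SE 1.25, adjusted p = 0.0634). Both values rest on that library. The other 3 overlapped the wild type ascending libraries, at 0.173 to 0.834 CPM, and the mutant descending libraries, at 0.0557 to 0.388 CPM.

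**Figure D3:**
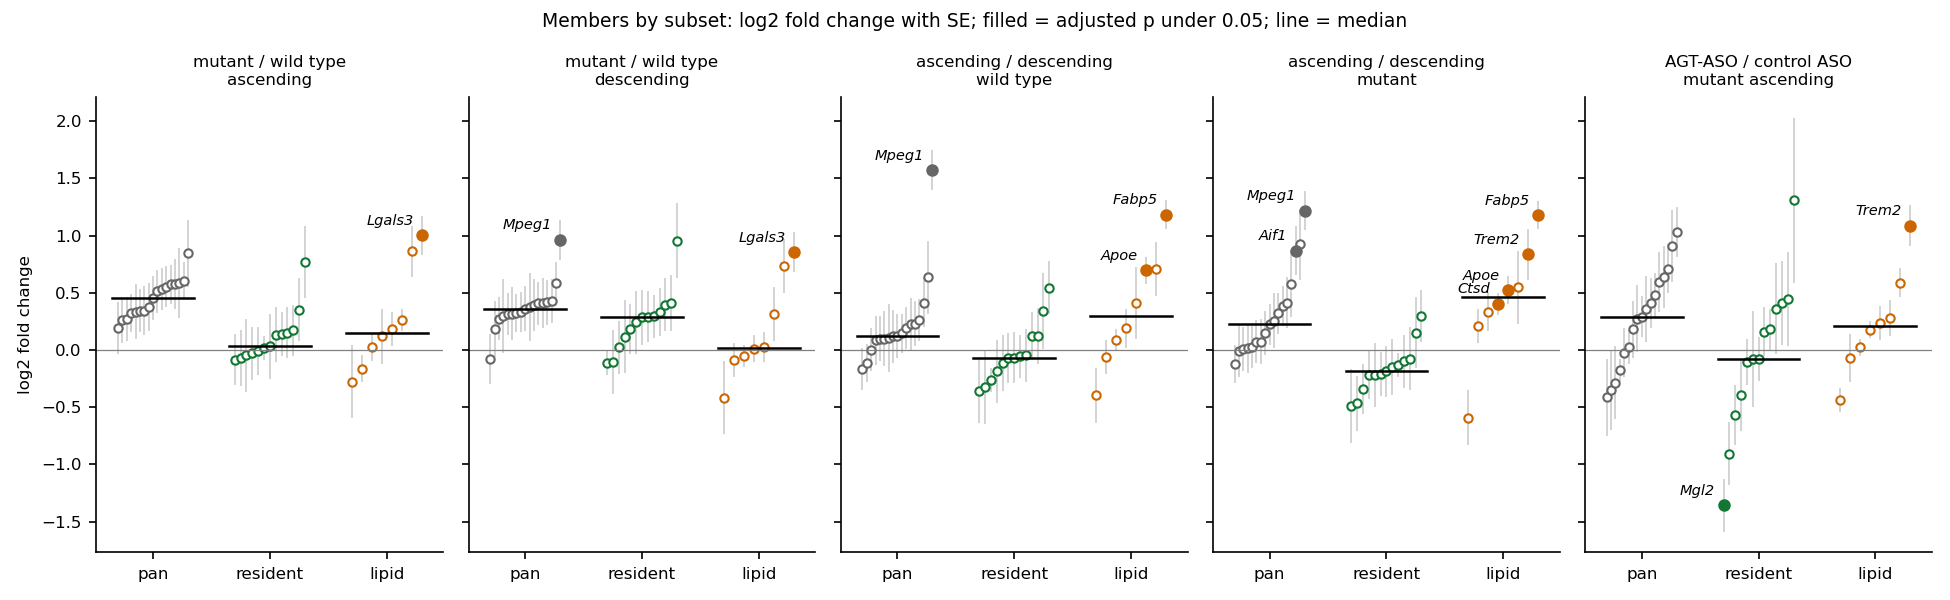
Log2 fold change with SE (y axis) of the 38 pan, resident and lipid genes in 5 comparisons; filled dots have an adjusted p under 0.05 and lines are subset medians. In the ascending genotype comparison the pan median is 0.46 and the resident median 0.03; under AGT-ASO the filled dots are Trem2, at 1.09, and Mgl2, at -1.36.

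In the descending aorta Mpeg1 and Lgals3 were higher in the mutant, 2 of 40 members against 1.21% of all genes called in either direction and 0.678% called higher. Mpeg1 was at 14.5, 13.3, 8.22 and 10.8 CPM in wild type and 26.2, 20.9, 27.1 and 17.6 CPM in mutant libraries, with no overlap (1.95-fold, log2 fold change 0.96, SE 0.18, adjusted p = 0.00797), and was called in 13 of 13 alternatives. Lgals3 was at 17.2, 14.03, 18.9 and 15.6 CPM in wild type and 32.3, 30.4, 29.2 and 27.6 CPM in mutant libraries, again with no overlap (1.81-fold, log2 fold change 0.85, SE 0.17, adjusted p = 0.017). Its call was lost without mutant library 2, wild type library 3 or wild type library 7, where the adjusted p reached at most 0.0652. Trem2 was at 3.41, 2.49, 1.49 and 2.83 CPM in wild type and 4.15, 4.23, 4.93 and 3.85 CPM in mutant libraries, separated but not called (0.74, SE 0.23, adjusted p = 0.175).

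The subset medians of this comparison depended on wild type library 5. With it, the subset medians were 0.36 (pan, 16 of 17 above 0), 0.28 (resident, 11 of 13) and 0.02 (lipid, 5 of 8). Without it they were 0.18 (15 of 17), 0.07 (8 of 13) and -0.04 (3 of 8). The lipid median was also at or below 0 without mutant library 6 (0.0), mutant library 8 (-0.02) or wild type library 3 (-0.01). Lyve1 was at 77.1, 74.0, 26.0 and 73.8 CPM in wild type and 90.4, 56.2, 71.3 and 80.7 CPM in mutant libraries; the low value is library 5, and the other 3 lay within the mutant range. Folr2 had 10.5, 8.06, 3.54 and 6.59 CPM in wild type and 9.19, 8.08, 9.22 and 8.72 CPM in mutant libraries (0.28, SE 0.24, adjusted p = 0.765). Csf1r (0.32, SE 0.23), Adgre1 (0.42, SE 0.20), Cd68 (0.58, SE 0.18, adjusted p = 0.168), Timd4 (0.19, SE 0.22), Mgl2 (0.33, SE 0.21) and Gpnmb (0.31, SE 0.24) were not called. In 2 pan, 1 resident and 2 lipid genes the mutant libraries lay wholly above wild type, and none lay wholly below, where 3.48% and 3.81% of all genes were separated upward and downward.

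The next comparison set the ascending against the descending aorta. In wild type mice Mpeg1, Fabp5 and Apoe were higher in the ascending aorta, 3 of 40 members against 11.1% of all genes called in either direction and 7.82% called higher. Mpeg1 was at 30.2 to 39.4 CPM in ascending and 8.22 to 14.5 CPM in descending libraries (2.97-fold, log2 fold change 1.57, SE 0.17, adjusted p = 6.38e-06). Fabp5, a fatty acid carrier, was at 18.8 to 26.8 CPM in ascending and 8.26 to 10.6 CPM in descending libraries (2.27-fold, log2 fold change 1.18, SE 0.13, adjusted p = 2.78e-06). Apoe was at 1284 CPM on average in ascending and 567.7 to 922.9 CPM in descending libraries (1.62-fold, log2 fold change 0.70, SE 0.12, adjusted p = 0.000472). All 3 were higher in the ascending library of each same-numbered pair and were called in 13 of 13 alternatives. Trem2 had a log2 difference of 0.71 (SE 0.23, adjusted p = 0.0606) and was higher in 3 of 4 pairs.

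In mutant mice 7 members were called, 6 higher and Retnla lower in the ascending aorta, where 9.92% of all genes were called, 6.41% higher and 3.51% lower. Mpeg1 (2.32-fold, log2 1.22, SE 0.17, adjusted p = 8.26e-05) and Fabp5 (2.27-fold, log2 1.18, SE 0.13, adjusted p = 3.23e-06) led again. Aif1 (1.83-fold, log2 0.87, SE 0.22, adjusted p = 0.013), Apoe (1.44-fold, log2 0.52, SE 0.12, adjusted p = 0.0067) and Ctsd (1.32-fold, log2 0.40, SE 0.09, adjusted p = 0.00827) were also higher. Trem2 was at 9.98, 7.33, 7.25 and 6.06 CPM in ascending and 4.15, 4.23, 4.93 and 3.85 CPM in descending mutant libraries, with no overlap (1.78-fold, log2 0.84, SE 0.22, adjusted p = 0.0203). That call was lost without ascending library 2, descending library 2 or descending library 8, with an adjusted p of at most 0.083. Retnla, a secreted protein of alternatively activated macrophages and fat, was at 15.4, 20.3, 13.8 and 21.3 CPM in ascending and 41.6, 47.5, 44.3 and 31.8 CPM in descending libraries (log2 -1.22, SE 0.36, adjusted p = 0.0419). It was separated between regions, but its call was lost in 8 of 13 alternatives, among them leaving out any 1 of 7 libraries, each of the 4 ascending ones and descending 2, 4 or 6, with an adjusted p of at most 0.127.

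None of the 13 resident members was called between regions in the fit to all 4 untreated groups. In mutant mice their median was -0.19, with 11 of 13 below 0, while the pan median was 0.23 and the lipid median 0.46; in wild type mice the medians were -0.07, 0.12 and 0.30. Without mutant ascending library 2 the mutant medians were -0.16, 0.06 and 0.44. Without wild type descending library 5 the wild type medians were -0.25, -0.07 and 0.23, so the sign of the wild type pan median depended on that library. The sign of the wild type resident median depended on others, at 0.11 with 9 of 13 above 0 without descending library 1 and at 0.01 with 8 of 13 without ascending library 7. Siglec1, a sialic acid receptor of resident macrophages, was higher in the ascending aorta of wild type mice, with no overlap, but was not called (0.54, SE 0.23, adjusted p = 0.174). The pan genes Ms4a7 (0.92, SE 0.31, adjusted p = 0.0764) and Msr1 (0.41, SE 0.22, adjusted p = 0.32) were separated upward in mutant mice without being called. The share of all genes separated upward was not counted in either region comparison. Folr2 (6.06, 5.45, 6.23 and 7.68 CPM in ascending against 9.19, 8.08, 9.22 and 8.72 CPM in descending mutant libraries) and Cd163, the haemoglobin scavenger receptor (49.2, 40.9, 40.5 and 47.4 against 75.1, 56.7, 52.8 and 66.2 CPM), were separated downward without being called (log2 -0.47, SE 0.24, adjusted p = 0.303, and -0.49, SE 0.32, adjusted p = 0.456); 5.87% of all genes were separated downward. In a fit to only the 2 mutant groups Cd163 was called lower (adjusted p = 0.0192), while over the other alternatives its adjusted p was 0.263 to 0.643. Lyve1 (-0.08, SE 0.27), Timd4 (-0.34, SE 0.22), Mgl2 (-0.22, SE 0.21), Csf1r (-0.01, SE 0.23), Adgre1 (0.07, SE 0.20), Cd68 (0.23, SE 0.18), Lgals3 (0.34, SE 0.17) and Gpnmb (-0.59, SE 0.24, adjusted p = 0.16) did not pass the test in mutant mice. The genotype comparisons and the region comparisons share libraries.

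Genes of other cell types differed between the regions as well, in both directions. All 6 mesothelial genes were called higher in the ascending aorta in both genotypes, summing to 258 to 517 CPM in ascending and 4.97 to 20.9 CPM in descending libraries. Heart muscle genes summed to 268 to 1071 and 71.0 to 241 CPM, and 6 of 8 in wild type and 5 of 8 in mutant mice were called higher. Of 5 lymphatic endothelial genes tested, 4 and 5 were called higher, with sums of 71.7 to 132 and 24.6 to 44.1 CPM. The summed dendritic cell genes were lower in every ascending library (65.0 to 87.0 CPM) than in every descending one (91.6 to 129 CPM), although by gene 2 and 4 of 10 were called higher and only Cd24a lower. The summed endothelial genes were at 1185 to 1647 CPM in ascending and 2049 to 2823 CPM in descending wild type libraries, and at 1104 to 1778 and 1775 to 2054 CPM in mutant libraries; of 6 genes, 2 were called higher in each genotype, and 3 lower in wild type and 1 in mutant mice. Lymphatic endothelium also makes Lyve1, which was not called between regions. The part of any of these cells in the region differences of the members was not tested.

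No member was called for the interaction, the test of whether the mutation's effect differed between regions. With edgeR's quasi-likelihood test 2 of 40 members had an unadjusted p under 0.05, DESeq2 called 0 members, and 0.00639% of all genes (1 gene) were called. The interaction estimate was 0.15 (SE 0.24) for Lgals3, -0.36 (SE 0.24) for Mpeg1 and 0.13 (SE 0.32) for Trem2 on the log2 scale, and the subset medians were 0.07 (pan), -0.16 (resident) and 0.13 (lipid). Each of these medians changed sign in at least 1 fit that left out a single library. Without wild type descending library 5 they were 0.25 (16 of 17 above 0), 0.04 and 0.19, and without mutant ascending library 2 they were -0.08, -0.15 and -0.04. The pan median was also below 0 without wild type descending library 7 (-0.06), and the lipid median without wild type descending library 1 (-0.06). A regional difference in the mutation's effect was not detected for any member with 4 libraries a group.

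**Figure D4:**
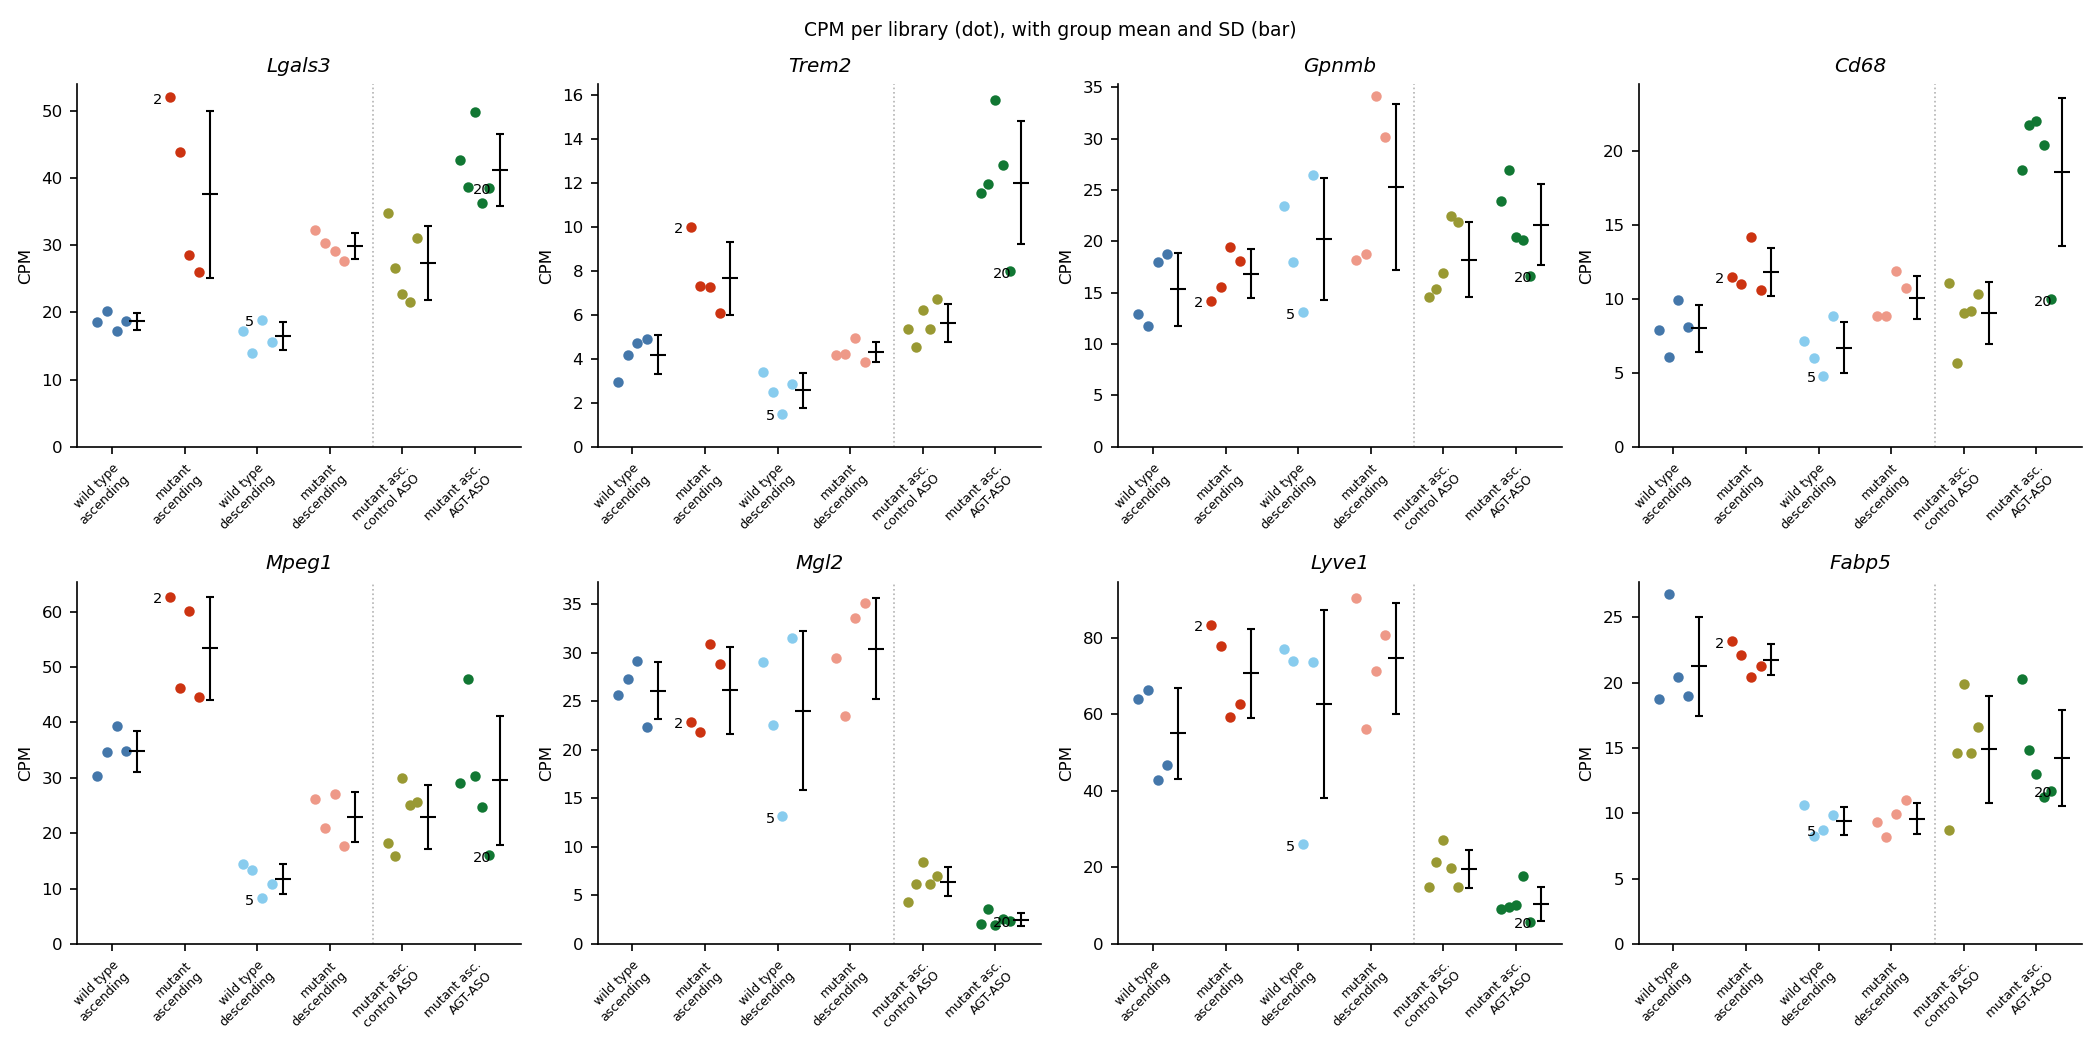
CPM of 8 members in each library (dots, y axis from 0), by group (x axis), with group mean and SD; numbers mark the libraries that stood apart. Among untreated libraries, Lgals3 and Trem2 are higher in mutant than in wild type libraries of each region. Mpeg1 and Fabp5 are higher in untreated ascending than in untreated descending libraries. Mgl2 is lower in every antisense library than in every untreated one.

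In the mutant ascending aorta of the antisense experiment, Trem2 was called higher and Mgl2 lower with AGT-ASO, 2 of the 10 genes called in the whole experiment. Over all 14981 genes 0.0668% were called, 0.0134% higher and 0.0534% lower. The members were proposed with earlier results of these data known, so their share of the calls is no test of the list. Trem2 was at 5.34, 4.52, 6.20, 5.37 and 6.72 CPM with control ASO and 11.5, 11.9, 15.7, 12.8 and 7.96 CPM with AGT-ASO. The lowest AGT-ASO value, from library 20, was above the highest control value (2.12-fold, log2 fold change 1.09, SE 0.18, adjusted p = 0.0378). Mgl2, a lectin of resident and dendritic cells that binds galactose-type sugars, was at 4.31, 6.20, 8.40, 6.14 and 6.98 CPM with control ASO and 2.07, 3.61, 1.91, 2.55 and 2.40 CPM with AGT-ASO. The groups again did not overlap (0.390 of the control level, log2 fold change -1.36, SE 0.23, adjusted p = 0.0378).

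Both calls stood close to the threshold. Over all alternatives the log2 fold change ranged from 0.97 to 1.21 for Trem2 and from -1.52 to -1.24 for Mgl2. The call for Trem2 was lost in 7 of 10 fits that left out 1 library, and for Mgl2 in 8 of 10. The Trem2 call was lost without AGT-ASO library 15, 18 or 19 or control library 12, 13, 16 or 17. The Mgl2 call was lost without any of those 7 or AGT-ASO library 20. The adjusted p then reached at most 0.129 and 0.13. Without library 20 the adjusted p was 0.0104 for Trem2 and 0.0654 for Mgl2, and without library 15, which had the highest Agt count, 0.0579 and 0.054.

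The starts of these 2 genes are shown because they are the members called with AGT-ASO, in opposite directions. The sequences are from RefSeq on GRCm38.p6, read 5′ to 3′ on the plus strand, and run from 250 bases before the RefSeq start to the last base before the first annotated exon. The capitals mark GAGGAA on either strand, a purine-rich box that ETS factors such as PU.1 can bind.
Trem2, chr17:48346151-48346400: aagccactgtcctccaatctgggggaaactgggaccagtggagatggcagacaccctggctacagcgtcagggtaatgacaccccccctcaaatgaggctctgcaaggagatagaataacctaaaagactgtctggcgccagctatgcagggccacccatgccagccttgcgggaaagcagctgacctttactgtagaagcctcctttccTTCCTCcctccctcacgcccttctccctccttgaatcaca
Mgl2, chr11:70130107-70130328: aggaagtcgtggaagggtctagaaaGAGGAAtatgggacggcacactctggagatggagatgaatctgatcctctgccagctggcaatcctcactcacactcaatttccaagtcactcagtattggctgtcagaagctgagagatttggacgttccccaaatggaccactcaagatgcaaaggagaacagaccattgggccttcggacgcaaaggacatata
Both hold 1 match, whose first base lies 40 bases before the start in Trem2, on the minus strand, and 225 bases before it in Mgl2, on the plus strand. RefSeq promoters were found for 30 of the 42 members, and 17 of those genes held GAGGAA in the 250 bases before a start, 6 of 11 pan, 6 of 10 resident, 2 of 6 lipid and 3 of 3 other genes. Some of these genes have more than 1 promoter. Counted by promoter, 19 of the members' 36 held it (52.8%), while 23.3% of all 32851 promoters did. TGANTCA, the AP-1 site, was found in 5 of 30 genes, Trem2 among them, and 5 of 36 promoters (6.7% of all promoters). CACGTG, the E-box of MITF and TFE factors, was found in 1 of 30 genes, Ctsd, and 1 of 36 promoters (6.0% of all promoters). These are matches of letters, with no binding measured.

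No other member was called with AGT-ASO. Among pan genes, Cd68 was at 11.1, 5.62, 9.03, 9.17 and 10.3 CPM with control ASO and 18.7, 21.7, 22.0, 20.4 and 9.96 CPM with AGT-ASO. Of the 5 AGT-ASO libraries 4 were above every control library, while library 20 lay within the control range, and the gene was not called (log2 1.03, SE 0.22, adjusted p = 0.101); without library 20 it was 1.19 and called (adjusted p = 0.0104), as it was without control library 8 (adjusted p = 0.0451). Control library 8 had the highest sum of inflammatory genes in that group, 102 CPM against 31.3 to 52.4 CPM. C1qc was at 0.71 (SE 0.22, adjusted p = 0.24) and Ms4a7, a membrane protein of tissue macrophages, at 0.91 (SE 0.32, adjusted p = 0.27). Csf1r (0.18, SE 0.25), Adgre1 (0.29, SE 0.18) and Mertk (-0.18, SE 0.10) were closer to 0. The pan median was 0.29, with 12 of 17 above 0, and 0.49 with 13 of 17 without library 20, against a median of -0.01 over all genes.

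Among lipid-associated genes Lgals3 was at 34.8, 26.6, 22.7, 21.6 and 31.1 CPM with control ASO and 42.8, 38.7, 49.9, 36.4 and 38.6 CPM with AGT-ASO, separated but not called (log2 0.59, SE 0.13, adjusted p = 0.101). Lpl had 215, 178, 237, 186 and 214 CPM against 170, 129, 144, 184 and 139 CPM, with overlap, and was not called (-0.43, SE 0.10, adjusted p = 0.117). Gpnmb was at 18.2 ± 3.70 and 21.6 ± 3.96 CPM (SD, n = 5; 0.24, SE 0.15). The lipid median was 0.21 with 6 of 8 above 0, and Trem2 and Lgals3 were the 2 members separated upward, where 1.31% of all genes were.

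Among resident genes Mgl2 was the 1 member separated downward, where 1.14% of all genes were, and the subset median was -0.08 with 6 of 13 above 0 (0.07 with 9 of 13 without library 20). That median was also above 0 without control library 8 (0.19), control library 13 (0.03) or AGT-ASO library 14 (0.06). Vsig4 had the highest log2 value of all members, 1.31, with a wide error (SE 0.72, adjusted p = 0.475) and 0 to 1.02 CPM with control ASO and 0.0586 to 2.21 CPM with AGT-ASO, with overlap. Lyve1 was at 14.90, 21.3, 27.0, 19.9 and 14.99 CPM with control ASO and 9.17, 9.62, 10.1, 17.8 and 5.68 CPM with AGT-ASO; 4 of 5 AGT-ASO libraries were below every control, and the gene was not called (-0.91, SE 0.27, adjusted p = 0.227). Beside it, the lymphatic endothelial genes summed to 81.7 to 172 CPM with control ASO and 44.0 to 103 CPM with AGT-ASO, 5 of 5 tested were below 0, none was called and Ccl21a had no counts in either group. Clec10a, the closest relative of Mgl2, was at -0.39 (SE 0.32), Folr2 at 0.36 (SE 0.40) and Timd4 at 0.41 (SE 0.37). Mgl2 and Clec10a share sequence: 13.1% of the 50-base windows of Mgl2 transcripts also occur in another gene, mainly Clec10a, so reads from those stretches are uncertain. Retnla was at -0.77 (SE 0.29, adjusted p = 0.303).

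Genes of other cell types also had different ranges in these groups, with no gene called. Heart muscle genes summed to 692 to 1421 CPM with control ASO and 323 to 690 CPM with AGT-ASO, mast cell genes to 17.9 to 62.7 and 3.34 to 16.6 CPM, and dendritic cell genes to 32.5 to 44.6 and 30.6 to 38.6 CPM. The heart muscle and mast cell sums did not overlap, while the dendritic cell sums did. By gene, 7 of 7 heart muscle, 6 of 6 mast cell and 7 of 8 dendritic cell genes tested were below 0. Their median log2 fold changes were -1.48, -1.4 and -0.54. The mitochondrial share of counts was 5.52 to 11.1% and 3.76 to 6.996%. Their part in the differences of Trem2 and Mgl2 was not tested.

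The untreated mutant ascending aorta and the control ASO mutant ascending aorta share genotype and region, but treatment and experiment cannot be told apart between them, so these values are given without a test. The resident genes were at a median of 0.277 of the untreated level with control ASO, and in 13 of 13 every control ASO library lay below every untreated library. The pan genes were at 0.401, with 14 of 17 separated downward, and the lipid genes at 0.746, with 2 of 8 separated downward and Ctsd separated upward. The pan genes that overlapped were Mertk (0.843), Cd68 (0.766) and Aif1 (0.67). Over the 15273 genes with a mean of at least 10 counts the median ratio was 1.00, and 13.9% were separated downward. Folr2 was at 6.36 ± 0.945 CPM untreated (SD, n = 4) and 1.13 ± 0.427 with control ASO (SD, n = 5), and Mgl2 at 26.1 ± 4.45 and 6.40 ± 1.49 CPM. Trem2, at 7.65 ± 1.66 and 5.63 ± 0.852 CPM, and Gpnmb, at 16.8 ± 2.39 and 18.2 ± 3.70 CPM, overlapped. The 6 endothelial genes were also low with control ASO, summing to 244 to 338 CPM against 1104 to 1778 CPM, while fibroblast genes summed to 6038 to 6858 and 6009 to 7586 CPM; the part of these cells was not tested.

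**Figure D5:**
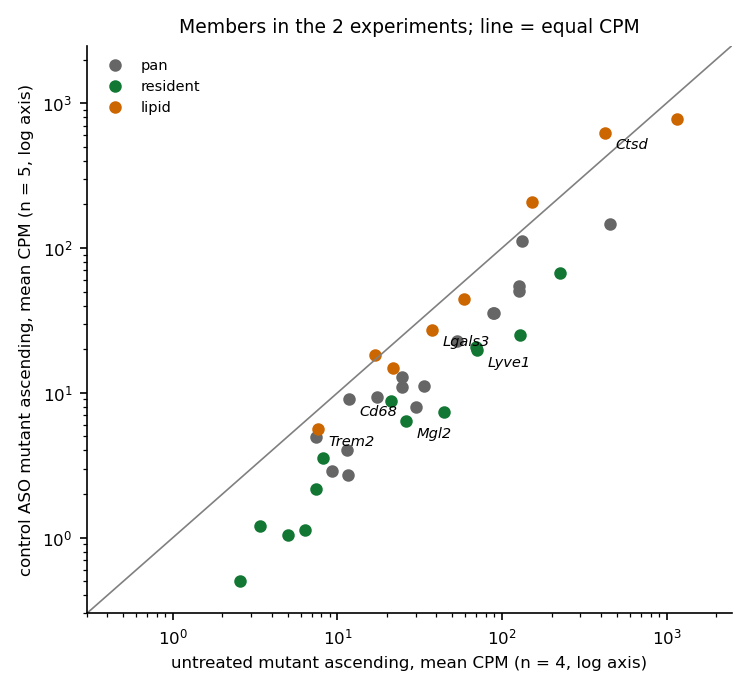
Mean CPM of the pan, resident and lipid genes in untreated mutant ascending aorta (x axis, log scale) and in control ASO mutant ascending aorta (y axis, log scale); the line marks equal CPM. The resident genes lie below the line, with a median ratio of 0.277, and the lipid genes close to it, with a median ratio of 0.746.

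The balance of Trem2 to Mgl2, as the difference of their log2(CPM + 0.5), was -2.52 ± 0.35 for wild type and -1.71 ± 0.46 for mutant libraries of the ascending aorta (SD, n = 4). For the descending aorta it was -2.98 ± 0.20 and -2.68 ± 0.28. It was -0.15 ± 0.29 with control ASO and 2.05 ± 0.50 with AGT-ASO (SD, n = 5). The AGT-ASO libraries were from 1.54 to 2.75 and the control ASO libraries from -0.42 to 0.28, so they did not overlap; the pair was chosen for its 2 calls, and the value is a description of them.

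Related genes outside the members, from lists chosen with earlier results known, were called more often between regions than by genotype or AGT-ASO, as were all genes (11.1% and 9.92% between regions, 2.19% and 1.21% by genotype and 0.0668% by AGT-ASO). Of 16 further lipid-associated genes, 4 were higher in the ascending aorta in each genotype: the integrin gene Itgax, the elastase gene Mmp12, osteopontin (Spp1) and lysosomal acid lipase (Lipa). Itgax was at 4.21 ± 0.365 CPM in ascending and 0.766 ± 0.244 CPM in descending wild type aorta (SD, n = 4; log2 2.45, adjusted p = 1.68e-06). It was also the 1 gene of that list called by genotype, in the descending aorta (2.02 ± 0.288 CPM in mutant; log2 1.38, adjusted p = 0.00856). The median of the 16 was 0.09 and 0.22 in the region comparisons and 0.03 and -0.01 in the genotype comparisons.

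Of the growth and transcription factors that maintain macrophages (11 of 12 tested), 4 were called between regions in wild type and 2 in mutant mice, all higher in the ascending aorta. Irf8, a factor of monocyte and dendritic lineages, was at 8.80 ± 1.03 and 3.47 ± 0.912 CPM in wild type (log2 1.34, adjusted p = 6.43e-05), and Runx1 and the receptor gene Csf2ra followed (log2 1.26 and 0.59). None was called by genotype or AGT-ASO. Of 14 further resident genes, Igf1, a growth factor that fibroblasts and smooth muscle also make, was lower in the mutant in both regions (log2 -0.90, adjusted p = 0.00573, and -0.87, adjusted p = 0.0105), while Gas6, the ligand of MERTK, was higher in the ascending aorta (0.35, adjusted p = 0.0119) and the transcription factor gene Maf in the descending aorta (0.40, adjusted p = 0.0495). Between regions, 3 of these 14 were called higher and 2 lower in the ascending aorta of wild type mice. In mutant mice 3 were called higher and 1 lower. Igf1, Gas6 and the iron exporter gene Slc40a1 were higher and Maf lower in the ascending aorta of both genotypes. Of 8 tested genes of signalling below TREM2, none was called by genotype. The monocyte list had 1 call by genotype, Ace, lower in the descending aorta (log2 -0.41, adjusted p = 0.0454), a gene that endothelium also makes. No gene of these lists, of 12 inflammatory genes or of any other list was called under AGT-ASO.

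The genes most like the resident subset were found by rank correlation with its mean over the 16 untreated libraries, among 15605 genes. Sema4a, Lrrn4cl, Ccl24 and Naip5 had a Spearman rho of 0.86 and Gm5431 of 0.83. The libraries share groups and the low wild type descending library 5, so these values describe the libraries only.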

How the data were processed

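RNA-seq read counts per Ensembl gene were deposited for each of 26 libraries; the tools that the submitters' processing notes name are fastp and STAR 2.6.1d, with the build mm10. The sources used here do not name the counting tool, its use of strand or its gene models, so genes that overlap on the opposite strand (Csf1r, Folr2, F13a1 and Stab1 among the members) cannot be told apart from their partners, and Ctsd shares 32.4% of its 50-base windows with an overlapping gene. GENCODE M21 named 99.93% of the IDs. The counts deposited by the authors were tested as they stand.

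The 16 untreated libraries (15645 genes after filterByExpr, 12 residual degrees of freedom) and the 10 antisense libraries (14981 genes, 8) were fitted apart with edgeR 4.0.16 (TMM, robust quasi-likelihood F test, two-sided, Benjamini-Hochberg over all genes, threshold 0.05) in R 4.3.3. CPM in the text use TMM factors over all 26 libraries. The fits were tested on simulated data. Same-numbered ascending and descending libraries deviated together (8 pairs, correlations of 0.162 to 0.305), so the numbers were taken to pair them; the pairing comes from the data and the titles' numbers. Alternatives were DESeq2 1.42.0, its size factors, no filter, only the groups compared, a replicate block (fixed, or random with limma 3.58.1) and leaving out each library. Named members are those called, those with the smallest p per subset (up to 6) and Csf1r, Adgre1, Cd68, Lyve1, Folr2, Mgl2, Timd4, Trem2, Gpnmb and Lgals3; of other lists, up to 4 called genes. The members and lists were chosen with earlier results of these data known. No 2 libraries of a group agreed within sampling noise.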

Additional observations from a re-analysis of the deposited data

Results flagged for a closer look

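There were 3 values that stood apart from the rest of their group by Dixon's criterion, among 114 groups of 4 or 5 libraries examined, of which chance alone would mark about 1 in 20. Cd68 was at 9.96 CPM in AGT-ASO library 20, where the other 4 AGT-ASO libraries were between 18.7 and 22.0 CPM. Lyve1 was at 26.0 CPM in wild type descending library 5, where the other 3 were between 73.8 and 77.1 CPM. The mean log2 level of the 8 lipid-associated genes was 5.92 in AGT-ASO library 20 and between 6.18 and 6.28 in the other 4.

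The region difference of Cd5l, a secreted macrophage scavenger protein, had opposite signs in the genotypes. It was below 0 in all 4 wild type pairs (mean log2 difference, ascending minus descending, -0.48) and above 0 in all 4 mutant pairs (mean 0.45). In wild type pair 5 both libraries held 2 counts, so the sign there came only from the scaling to library size. Mutant pair 8 held 2 counts in the ascending and 0 in the descending library. The difference between the genotypes was not tested, and no library held more than 20 counts of this gene.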

How the results depend on the processing

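No log2 fold change of a called member changed sign in any alternative. The number of members called for the genotype effect in the ascending aorta was 1 and became 2 without the filter on low counts or with only the 2 groups compared, 3 with a random replicate block and 4 with DESeq2; leaving out single libraries gave 1 to 3. In the descending aorta it was 2 and leaving out single libraries gave 1 to 3. For AGT-ASO it was 2, and became 4 without the filter and 6 with DESeq2, while leaving out single libraries gave 0 to 4; over all genes the 10 calls became 259 with DESeq2 and ranged from 0 to 180 when single libraries were left out. The calls over all genes for genotype became 774 with DESeq2 in place of 342 (163 to 347 without single libraries) in the ascending aorta and 407 in place of 189 (128 to 170) in the descending aorta, and for the interaction 36 in place of 1 (1 to 10). For region it was 3 in wild type mice, with 3 to 4 without single libraries and 4 with DESeq2, and 7 in mutant mice, with 5 to 7 without single libraries, 9 with DESeq2, 8 with only the 2 groups compared and 6 without the filter. A fixed replicate block gave 3 and 7 and left the interaction at 0. The replicate block changed no other call than those of Trem2 and Mpeg1 given above. The causes of these shifts were not tested. Depth limits the members with few counts: Marco and Cd5l, at no more than 20 counts in any library, could not be tested.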
